A study of Mus musculus with 2 samples.

Results

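The miRNA hairpins Mir28a, Mir151 and Mir708 belong to the group of miRNAs traced to long interspersed nuclear elements (LINEs), an ancient class of transposon. They were chosen by name, and their reads were the deposited tags (distinct read sequences with a count) that matched one of these hairpins perfectly over the whole tag. The 3 hairpins were 3 of the 1174 miRNA hairpins with a miRNA name in GENCODE M21. They took 102 distinct tags, none of which matched any other named hairpin. These tags held 10402 reads in the control library (18870345 clean reads in all) and 11031 in the PD library (20944808 clean reads in all). The hairpins were picked with the change between the libraries in view, namely the change of the 3p arm beside that of the 5p arm. All changes are therefore given as a description, without a test.

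The cells were J1, a mouse embryonic stem cell (ESC) line, kept on gelatin with 1000 U/mL LIF, a cytokine that maintains self-renewal. One group of cells received 1 μM PD0325901 (PD), an inhibitor of the kinase MEK that blocks ERK signaling, and the control group received DMSO, both for 24 h. Total RNA of 3 independent experiments was pooled per group before a single small RNA library was made of each, so there were no replicates and every interval below covers the counting of reads only. The question was which miRNAs of ESCs respond to the loss of ERK signaling.

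A miRNA hairpin is cut out of its primary transcript by Drosha, and Dicer then removes the terminal loop, which leaves a duplex of a 5p and a 3p arm. As a rule one arm is kept by an Argonaute protein and guides it to mRNAs through its seed, bases 2 to 8 from the 5′ end, while the other arm and the loop are degraded. The miR-28 family is widely cited as miRNAs that arose from LINE-2 copies, and its members often lie in introns. The repeat origin itself was not examined here, since no repeat annotation was used.

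Mature sequences in the RefSeq set used (build GRCm38.p6) covered 4 of the 6 arms, and the set had no entry for miR-151. They are shown with the seed in capitals, because the seed decides which of the arms can share targets.
miR-28a-5p: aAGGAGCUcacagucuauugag
miR-708-5p: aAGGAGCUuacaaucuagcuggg
miR-28a-3p: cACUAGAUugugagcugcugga
miR-708-3p: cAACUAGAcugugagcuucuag
The 5p arms of miR-28a and miR-708 had the same seed, and no other miRNA with reads carried it. The miR-151 arms shared a seed with no other miRNA with reads. Over the main tags, the 5p arms of miR-28a and miR-151 shared an unbroken run of 16 nt, placed differently from the 5′ end, so that their seeds differed. The 5p arms of miR-28a and miR-708 were identical in 73.9% of the aligned columns, and their 3p arms in 81.8%. Whole hairpins were 65.5% identical between Mir28a and Mir151, 58.6% between Mir28a and Mir708, and 53.2% between Mir151 and Mir708.

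In GENCODE M21 (build GRCm38) each of the 3 hairpins lay in an intron of a protein-coding gene on the same strand, outside all exons of that gene. Mir28a was at chr16:24827855-24827940 on the plus strand, in intron 8 of the transcript Lpp-201, whose gene encodes a LIM domain protein of focal adhesions. Mir151 was at chr15:73254815-73254882 on the minus strand, in intron 22 of Ptk2-201, the gene of focal adhesion kinase. Mir708 was at chr7:96249424-96249532 on the plus strand, in intron 1 of Tenm4-201, the gene of a teneurin, a transmembrane protein known from neural development. The nearest exons of the host genes were 17151, 2152 and 37434 nt away, in the same order. Tags matching the 2 other hairpins named Mir28, Mir28b and Mir28c, were absent from both libraries, which allows up to 0.159 RPM in the control and 0.143 RPM in PD. Mir28b lay outside introns of protein-coding genes on its strand, and Mir28c in intron 4 of Samd12-201.

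Levels are reads per 1000000 clean reads (RPM) of the library. In the control library the lowest of the arms was miR-28a-5p with 3.34 RPM (63 reads), followed by miR-28a-3p with 11.6 RPM (218 reads). Next came miR-151-5p with 21.9 RPM (413 reads), miR-708-3p with 26.1 RPM (492 reads) and miR-151-3p with 42.7 RPM (806 reads). The highest was miR-708-5p with 237 RPM (4481 reads), rank 66 of the 508 miRNAs that reached 1 RPM in either library and were treated as detected. All 6 arms passed this filter in both libraries. The order of the 6 arms was the same in the PD library, where their levels were 2.435, 10.2, 15.2, 22.1, 41.3 and 192 RPM from the lowest to the highest. Without replicates the spread that would set neighbours in this order apart is not known. Of the reads with the seed of the 5p arms of miR-28a and miR-708, 98.6% in the control and 98.7% in PD came from miR-708-5p. As a check of the cell type, 5 genes of the miR-290-295 cluster served as ESC markers and had 1941 to 12290 RPM each in the control. Each was lower in PD, and they summed to 31100 RPM in the control and 26365 RPM in PD. The marker list also held miR-292 as Mir292a, a name not found in the annotation used, so it was not among the 5. The list did not hold miR-291b of the same cluster. In the control miR-292 had 596 (5p) and 1359.5 RPM (3p), and miR-291b 239 (5p) and 52.9 RPM (3p). Of the markers of other cell types, the 2 neural ones summed to 278 RPM in the control and 493 RPM in PD, with Mir124a at 257 and 476 RPM and Mir9 at 20.9 and 17.4 RPM. The 3 muscle markers summed to 161 and 167 RPM, of which Mir1a had 157 and 166 RPM. Mir206 was at 3.13 and 1.19 RPM and Mir133a at 0.318 and 0.382 RPM. The 4 mesenchymal markers summed to 208 and 179 RPM, with Mir199a at 92.3 and 61.6 RPM, Mir143 at 109.2 and 109.6 RPM, Mir145a at 6.94 and 7.35 RPM and Mir214 at 0 in the control. The 3 blood markers summed to 16.5 and 15.9 RPM, with Mir223 at 0 in both, and the liver marker Mir122 had 2.91 and 2.01 RPM. Their part in the values below was not tested, and in such bulk RNA fewer cells with a miRNA and less of it per cell cannot be told apart.

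**Figure D1:**
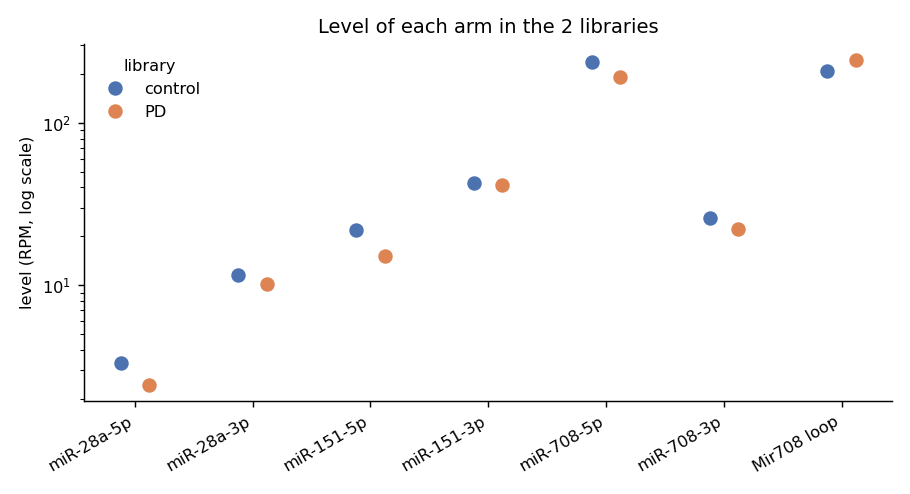
Level of each arm and of the Mir708 loop in RPM on a log axis, with 1 point per library (blue, control; orange, PD; no replicates). The 6 arms run from 3.34 to 237 RPM in the control, and with all clean reads as denominator each PD point of an arm is below its control point, while that of the loop is above. With reads of 20 to 24 nt as denominator 3 of the 6 arms are below.

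The preferred arm differed between the hairpins. In the control library the 3p arm gave 77.6% of the Mir28a arm reads (95% Wilson interval 72.4 to 82.1) and 66.1% of those of Mir151 (63.4 to 68.7), but 9.89% of those of Mir708 (9.09 to 10.8). In other words, miR-708-5p had 9.11 reads for each read of its 3p arm, while miR-28a-3p had 3.46 and miR-151-3p 1.95 for each read of the 5p arm. In the PD library the 3p shares were 80.7% (75.5 to 85.0) for Mir28a, 73.1% (70.5 to 75.5) for Mir151 and 10.3% (9.46 to 11.2) for Mir708. The 3p share was thus higher in PD in each hairpin, by the same reads that the arm comparison rests on.

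All 6 arms were lower in the PD library than in the control when all clean reads were the denominator (3 to 5 of the 6 with 4 other denominators), and none reached a 1.5-fold difference with any of them. Among all 508 detected miRNAs, 13.2% were lower in PD by 1.5-fold or more and 5.91% were higher. Reads of miR-151-5p went from 413 to 318, a fold change of 0.694 (95% Clopper-Pearson interval 0.597 to 0.805), and those of miR-28a-5p from 63 to 51, a fold change of 0.729 (0.494 to 1.07). With 0.808 (0.774 to 0.843) from 4481 and 4018 reads, miR-708-5p was closer to the control level. On the 3p side, miR-708-3p had a fold change of 0.846 (0.744 to 0.963) from 492 and 462 reads. For miR-28a-3p it was 0.880 (0.725 to 1.07) from 218 and 213 reads, and for miR-151-3p 0.966 (0.876 to 1.06) from 806 and 864 reads.

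These values must be read against the bulk of the miRNAs, whose median log2 fold change was -0.17. Relative to that median, the log2 fold change was -0.36 for miR-151-5p, -0.28 for miR-28a-5p, -0.14 for miR-708-5p, -0.07 for miR-708-3p, -0.01 for miR-28a-3p and 0.12 for miR-151-3p. The lowest of them, miR-151-5p, lay above 16.7% of the detected miRNAs, and the highest, miR-151-3p, above 62.8%. The direction depended on the denominator. With the reads that match hairpins, miR-151-3p and miR-28a-3p were above the control level (fold changes of 1.11 and 1.01) and 4 arms were below it. With clean reads of 20 to 24 nt, 3 of the 6 arms were below it, and with TMM or DESeq2 size factors 5 of the 6. Those 4 denominators moved the median log2 fold change of all detected miRNAs by 0.20, 0.28, 0.16 and 0.17, respectively. The share of clean reads with 20 to 24 nt was 63.0% in the control and 52.0% in PD, and its part in these values was not tested.

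**Figure D2:**
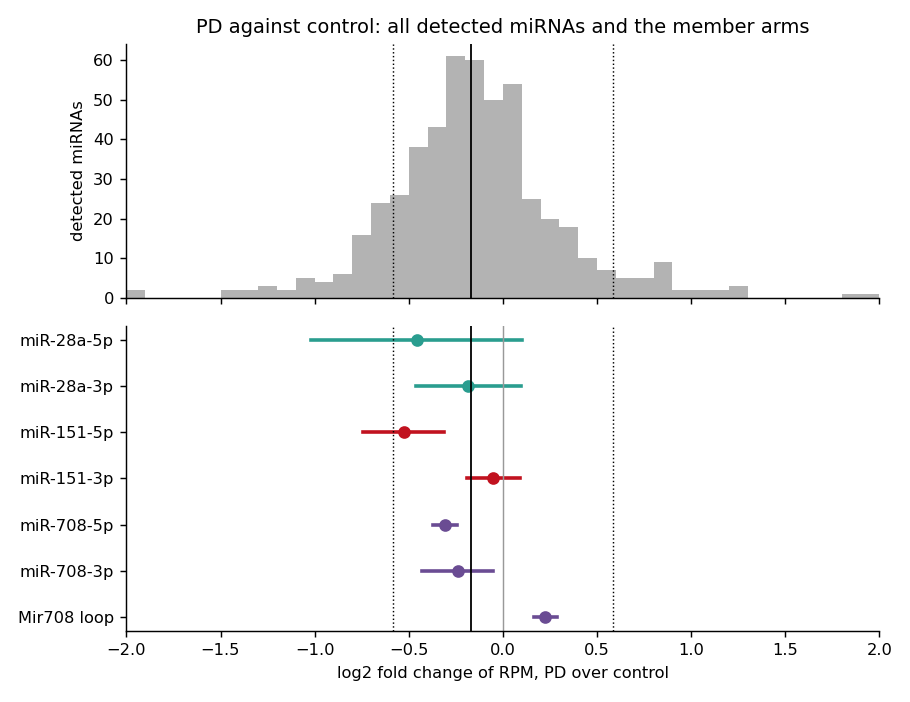
Top, histogram of the log2 fold change of RPM (PD over control) of all 508 detected miRNAs, with values beyond the axis drawn in the outermost bins. Bottom, the 6 arms and the Mir708 loop with 95% counting intervals (bars), the median of all detected miRNAs (black line, -0.17) and the 1.5-fold limits (dotted). With all clean reads as denominator, the 6 arm points lie below 0 and inside the limits and the loop point above 0, while with reads of 20 to 24 nt 3 of the 6 arms are below 0.

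In each of the 3 hairpins the 3p arm had the higher fold change, a comparison from which the denominator drops out. The log2 fold change of the 3p arm exceeded that of the 5p arm by 0.48 in Mir151 (95% counting interval 0.22 to 0.74), by 0.27 in Mir28a (-0.36 to 0.90) and by 0.07 in Mir708 (-0.13 to 0.26). These differences were in view when the hairpins were chosen, so the intervals describe the counting of reads and call none of them. As ratios of the 3p to the 5p fold change they were 1.39, 1.21 and 1.05, and none reached 1.5-fold. Over the 148 hairpins with both arms detected, 8.11% had a 3p change above the 5p change by 1.5-fold or more and 10.1% one below it by as much. The median difference over these hairpins was -0.07, and 41.2% were above 0. The difference of Mir151 was larger than that of 85.8% of these hairpins, that of Mir28a larger than 76.4% and that of Mir708 larger than 62.2%.

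**Figure D3:**
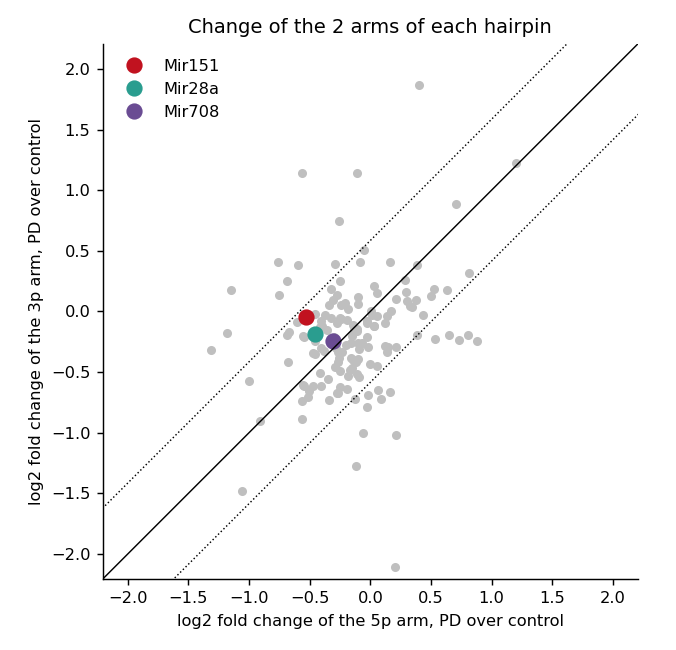
Log2 fold change (PD over control) of the 3p arm against that of the 5p arm for the 148 hairpins with both arms detected (grey), with Mir28a, Mir151 and Mir708 in color. The solid line marks equal change and the dotted lines a 1.5-fold difference between the arms. The 3 hairpins sit between the solid line and the upper dotted line, Mir708 closest to equal change and Mir151 farthest from it.

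Besides its arms, Mir708 gave an abundant loop product, which held nearly as many reads as its main arm in the control and more in PD. The most frequent tag of this hairpin was not an arm but the terminal loop, 23 nt long, at chr7:96249473-96249495. It is shown with the main tag of the 3p arm, whose seed is in capitals, because the ends of these tags nearly abut in the hairpin.
Mir708 loop: ggtagatgacttgcacttgaaca
main miR-708-3p tag: aACTAGACtgtgagcttctaga
The loop tag began directly after the last base of the main miR-708-5p tag (gap of 0 nt) and ended directly before the first base of the RefSeq miR-708-3p. Loop tags had 3928 reads (208 RPM) in the control and 5095 reads (243 RPM) in PD. Of these, 97.5% and 98.4% were the single 23 nt tag, so that both ends were sharply set.

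The loop was 44.1% (95% Wilson interval 43.1 to 45.2) of the arm and loop reads of Mir708 in the control and 53.2% (52.2 to 54.2) in PD. Its fold change was 1.17 (95% Clopper-Pearson interval 1.12 to 1.22), while both arms were below the control level (miR-708-3p not so with reads of 20 to 24 nt as denominator). No other hairpin had as many loop reads, but loop products under 18 nt could not be seen in these libraries. The main 5p tag ended at hairpin base 29 in Mir151, 34 in Mir28a and 49 in Mir708. The main 3p tag began at base 43, 54 and 74, in the same order. The space for a loop product was thus under 18 nt in Mir151 and shorter in Mir28a than in Mir708, so their loops cannot be compared. The next was Mir127 with 360 reads in the control and 375 in PD, which were 2.05% and 2.55% of its reads. The loop share of Mir700 was alike, 44.3% in the control and 53.2% in PD, but from only 70 and 133 loop reads. A higher loop level in PD was not particular to Mir708. The loop fold change was 1.71 for Mir700 and 2.21 for Mir32 (44 and 108 reads), but 0.9385 for Mir127 and 0.783 for Mir299a. When an arm is called from the midpoint of its tags alone, the Mir708 loop tag passes for the 3p arm. The arm difference of Mir708 would then be 0.53 in place of 0.07.

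**Figure D4:**
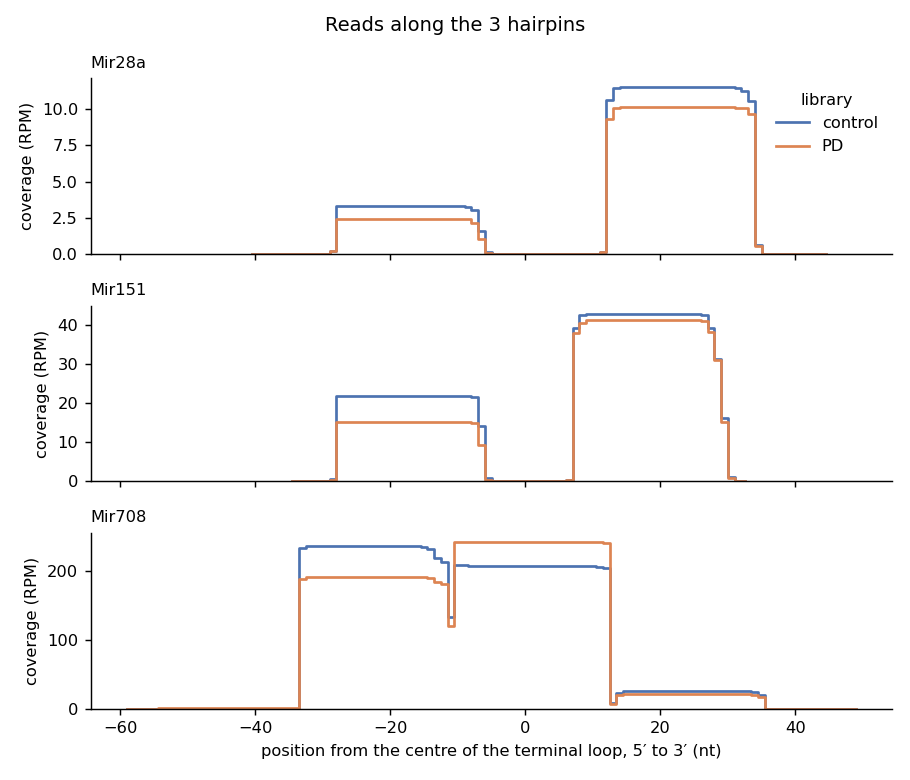
Coverage in RPM (y axis) along the 3 hairpins by position from the centre of the terminal loop (x axis, nt), for the control (blue) and PD (orange) libraries. Mir28a and Mir151 show 2 blocks with a gap between them, the 3p block the higher. In Mir708 the loop fills the gap between the arms and reaches 208 RPM in the control and 243 RPM in PD. Products under 18 nt are not in the data, so an empty gap does not show that a shorter loop product was absent.

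The 5′ end sets the seed, and it was sharp in 5 of the 6 arms. In the control, the main tag's first base was used by 93.7% of the miR-28a-5p reads, 90.8% of miR-28a-3p, 96.9% of miR-151-5p, 90.9% of miR-151-3p and 98.4% of miR-708-5p. In PD these shares were 92.2%, 90.6%, 96.5%, 90.5% and 98.5%. For miR-708-3p the share was only 60.0% (95% Wilson interval 55.6 to 64.2) in the control and 66.0% (61.6 to 70.2) in PD. This main start lay 1 base after that of the RefSeq sequence, which had 26.0% of the reads in the control and 26.2% in PD. A start a further base on had 14.0% (11.2 to 17.4) in the control and 7.14% (5.13 to 9.86) in PD. With the shifted start, bases 2 to 7 of the main miR-708-3p tag were ACTAGA, the same as those of miR-28a-3p, while base 8 differed. No other detected miRNA had these bases.

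Short tags of miR-708-5p were fewer in PD. Tags of 23 nt, its main length, had 2443 reads in the control and 2453 in PD, a fold change of 0.905 (95% interval 0.855 to 0.957). For 22 nt the fold change was 0.782 (0.726 to 0.842), for 21 nt 0.428 (0.316 to 0.576) and for 18 to 20 nt 0.422 (0.348 to 0.510). The share of reads of 18 to 20 nt was accordingly 7.72% (6.98 to 8.54) in the control and 4.03% (3.47 to 4.69) in PD. In miR-708-3p, reads of 21 nt went from 98 to 58 and those of 22 nt from 327 to 357, fold changes of 0.533 (0.379 to 0.745) and 0.984 (0.844 to 1.15). At 23 nt they went from 52 to 35, a fold change of 0.606 (0.383 to 0.949), so that the fold change of this arm was highest at its main length and lower on both sides. The arms of miR-151 had fold changes of 0.769 (0.596 to 0.992) at 21 nt and 0.684 (0.563 to 0.830) at 22 nt for the 5p arm, and of 0.999 (0.794 to 1.26) and 1.00 (0.865 to 1.16) for the 3p arm.

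Fewer short tags were found in PD for most miRNAs. Of the 309 miRNAs with at least 100 reads in both libraries, 241 (78.0%) had a lower share of 18 to 20 nt reads in PD, with a median difference of -0.967 percentage points. Over all detected miRNAs these lengths made up 9.64% of the reads in the control and 5.47% in PD. In miR-151-3p the short share was 8.31% (6.60 to 10.4) in the control and 6.94% (5.43 to 8.84) in PD, with overlapping intervals. In miR-151-5p it was 0.969% and 0.943%, from 4 and 3 reads. The counts of short tags in miR-28a were between 4 and 6 reads per arm and library. Those of miR-151-5p and miR-28a were too few to compare.

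**Figure D5:**
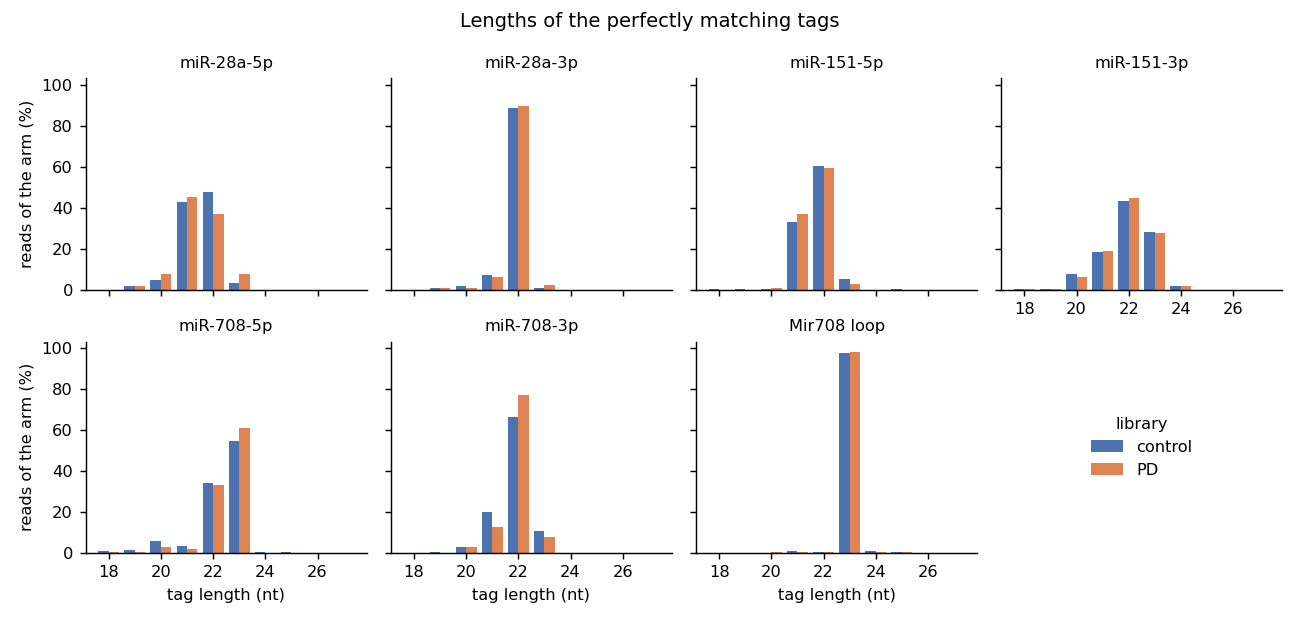
Share of the perfectly matching reads of each arm and of the Mir708 loop (y axis, %) by tag length (x axis, nt) in the control (blue) and PD (orange) libraries. The main length is 23 nt for miR-708-5p and for the loop, and 22 nt for miR-28a-3p, miR-151-5p, miR-151-3p and miR-708-3p, and the shares of miR-708-5p at 18 to 21 nt are lower in PD.

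Enzymes that add single bases can extend the 3′ end of a mature miRNA, which leaves tags that match a hairpin except for their last bases. Such tags with 1 to 3 added bases were counted besides the perfect matches. They were common in miR-151-3p, with 540 reads in the control and 541 in PD, which were 40.1% (95% Wilson interval 37.5 to 42.8) and 38.5% (36.0 to 41.1) of its reads. This was rank 18 in both libraries among 267 single-copy miRNAs with at least 100 reads in both, for which the median share was 7.08% in the control and 8.70% in PD. A single added A was the most frequent form, with 203 and 160 reads, followed by a single U with 139 and 139.

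In miR-28a-3p the extended share was 18.4% (14.2 to 23.4) in the control and 19.3% (15.0 to 24.5) in PD. The 5p arm of miR-151 had 5.92% (4.07 to 8.54) and 7.29% (4.99 to 10.5). In miR-708-5p the share was 6.74% (6.07 to 7.49) in the control and 9.24% (8.42 to 10.1) in PD, and in miR-708-3p 6.29% (4.51 to 8.70) and 11.7% (9.19 to 14.7), so that the intervals were apart in both arms of miR-708. Across the 267 miRNAs, the share was higher in PD for 172. The loop of Mir708 was extended in 2.17% (1.76 to 2.67) of its reads in the control and 1.75% (1.43 to 2.15) in PD, with 73 of 87 and 72 of 91 additions made of U alone.

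The primary transcript of miR-151 is a known substrate of adenosine deamination, which reads as an A-to-G change. Tags of miR-151-3p with a single internal mismatch had 6 reads in the control and 11 in PD, beside 806 and 864 perfect reads. Of these, 1 in each library was an A-to-G change, which was 0.124% (95% Wilson interval 0.0219 to 0.699) in the control and 0.116% (0.0204 to 0.652) in PD. In miR-151-5p there were 0 A-to-G reads beside 413 perfect reads in the control and 2 beside 318 in PD. These counts cover tags of the mature arms only, so how far the primary transcript was deaminated was not measured.

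Since all 3 hairpins are intronic, other intronic miRNAs were set beside them. There were 197 other detected miRNAs with a hairpin in an intron of a protein-coding gene on the same strand. Of these, 23 were lower by 1.5-fold or more in PD and 16 were higher. In all 508 detected miRNAs, 67 (13.2%) were lower and 30 (5.91%) higher by as much. The median log2 fold change of the 197 was -0.10, beside -0.17 for all 508. Among hairpins with both arms at 10 RPM or more in either library (53 hairpins), the one nearest to Mir151 in the changes of both arms was Mir411, with fold changes of 0.658 (5p) and 0.941 (3p) and a distance of 0.08 on the log2 scale. Mir369 was nearest to Mir28a, with fold changes of 0.683 (5p) and 0.864 (3p) and a distance of 0.10. Both of these are genes of the imprinted Dlk1-Dio3 region, whose share among the 53 hairpins was not counted. They were picked by closeness in these same changes, and a link to this region was not tested. Nearest to Mir708 was Mir30c, with 0.755 (5p) and 0.811 (3p) and a distance of 0.12.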

How the data were processed

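Small RNA of J1 mESCs treated with DMSO (control) or PD was sequenced, with 1 library per group from RNA pooled over 3 experiments. The authors gel purified RNA of 18 to 30 nt, ligated adapters, sequenced the libraries and removed low-quality, adapter and contaminant reads and reads under 18 nt. The deposited values are raw counts of clean reads per distinct tag, without normalization. The submitters' processing notes name the build mm9, but the deposited files hold no coordinates. The cleaning tools are not given in the sources used here, and the labels name a TruSeq RNA kit. A last line with the total and no sequence was left out.

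Tags were matched with Python 3.11.15 to the 1174 named miRNA hairpins of GENCODE M21 (GRCm38), allowing perfect matches only. Hairpins were folded with ViennaRNA 2.7.2. A tag with at least 6 bases on each side of the loop centre was a loop tag. For each arm, the tag with most reads in both libraries together was the main tag, and tags sharing at least 16 nt with it were counted. Hairpin copies with 1 name were merged. RPM used all clean reads, with 0.01 RPM in place of 0, and 3 reads (0.159 and 0.143 RPM) were the floor. With 1 library per group no model with replicates could be fitted, and no test was made. Fold changes have 95% Clopper-Pearson intervals, arm differences exact conditional intervals of the odds ratio and shares Wilson intervals (SciPy 1.17.1), which cover counting error only. PCR duplicates were not removed from the counts.

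The text names all member arms, miRNAs with their seeds, other hairpins named Mir28 and the hairpin nearest to each member. The members and lists were chosen with earlier results of these data known. Alternatives were other rules for the tags, a thinned PD library, other filters and thresholds, and the denominators of hairpin reads, reads of 20 to 24 nt, TMM (edgeR 4.0.16) and DESeq2 1.42.0 size factors. Counting and intervals were tested on simulated reads, all placed in the main tags of arms and with counting error only. That test did not cover the overlap and loop rules or the spread between libraries. The microarray and the qPCR were not analysed here.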

Additional observations from a re-analysis of the deposited data

How the results depend on the processing

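None of the 70 fold changes of the 6 arms under the 8 alternatives for tags and depth and the 4 denominators reached 1.5-fold. The arm difference kept its sign in all 23 values with other tags or a thinned PD library. These values recount the same libraries for a difference that was in view when the hairpins were chosen, so they are no independent support. Some could not differ: none of the 102 tags was shared with another hairpin, so leaving out shared tags changed nothing. With only the tag identical to the main tag, the fold change was 0.905 for miR-708-5p and 0.985 for miR-708-3p, and the 3p share was 87.5% (control) and 89.2% (PD) for Mir28a and 54.0% and 64.3% for Mir151. With 3′ extensions added, the 3p share of Mir151 was 75.4% and 80.4%, and with only tags that begin at the first base of the main tag that of Mir708 was 6.27% and 7.15%. Taking the loop as the 3p arm of Mir708, an alternative chosen after seeing the data, gave an arm difference of 0.53.

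With hairpin reads as denominator the fold changes were 1.11 for miR-151-3p, 0.926 for miR-708-5p and 0.970 for miR-708-3p. With reads of 20 to 24 nt they were 0.840 for miR-151-5p, 1.17 for miR-151-3p, 0.978 for miR-708-5p and 1.02 for miR-708-3p. TMM gave 1.08 for miR-151-3p and 0.903 for miR-708-5p, and DESeq2 size factors 1.09 and 0.909. Of all detected miRNAs, 67 were lower and 30 higher by 1.5-fold or more. The numbers lower and higher were 27 and 50 with hairpin reads and 22 and 62 with reads of 20 to 24 nt as denominator, 31 and 41 with TMM, 31 and 44 with DESeq2 size factors, 294 and 261 without a filter, 27 and 8 at 10 RPM or more, and 16 and 9 at 2-fold. With tags of 21 nt or more they were 44 and 41. Calls higher in PD were 30.9% of all calls with clean reads, 64.9% with hairpin reads, 73.8% with reads of 20 to 24 nt, 56.9% with TMM and 58.7% with size factors. Arms of 27 hairpins differed in change by 1.5-fold or more, against 112 without a filter and 13 at 2-fold. The cause of these differences was not tested, except that a filter or threshold changes the number counted by construction.

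No paired analysis was possible because each group had 1 library, and for the same reason no replicate could be left out. No alternative with the RefSeq sequence was run for Mir151, because the set used had no entry for it. Depth limited miR-28a-5p most, whose interval spans 0.494 to 1.07.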
